A study of Rattus norvegicus with 8 samples.

Results

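Integrins and laminins are the cell surface receptors and the basement membrane chains by which retinal cells hold on to their matrix. The members were all genes of the array annotation whose symbol marks an integrin alpha or beta chain or a laminin alpha, beta or gamma chain, taken from probe sets with exactly 1 gene symbol. They came to 31 of 16633 measured genes, 21 integrins and 10 laminins, on 1021 of 172924 probe sets. A further 2 probe sets that carry a second gene's symbol were left out, and Itgb3, Itga8 and Itga9 are not analysed here. All 31 symbols are current RefSeq symbols.

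The study measured retinas of male Brown Norway rats, wild type and 8 weeks old, 4 h after TES (transcorneal electrical stimulation), in which an electrode on the cornea sends current through the eye. Sham retinas came from animals of the same strain, sex and age 4 h after the sham procedure. Each group has 4 Affymetrix Rat Gene 1.0 ST arrays with replicate numbers 1 to 4, and the sources do not tie each array to its own animal, so the spread behind the p-values may be partly technical. The tissue was whole retina, so fewer cells of a type and less RNA per cell cannot be told apart.

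An integrin is a pair of 1 alpha and 1 beta chain that spans the cell membrane, binds matrix proteins or surface proteins of other cells outside, and couples to the actin cytoskeleton through talin, kindlin and paxillin inside. A laminin is a trimer of an alpha, a beta and a gamma chain, and laminin networks are the base on which type IV collagen, nidogen and perlecan assemble into a basement membrane. In the retina such membranes lie at the vitreal surface (the inner limiting membrane, anchored by Mueller glia), around the vessels and beneath the pigment epithelium. Laminin chains also lie in the matrix around the photoreceptors, and the pigment epithelium uses the integrin of Itgav and Itgb5 to take up shed outer segments.

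Values are log2 GC-RMA signals, averaged over the probe sets of a gene, and differences are given as the TES mean minus the sham mean, in log2 units. Signals of different genes come from different probes, so their order is no order of RNA amount. Over all genes, pairs of arrays had an r between 0.9896 and 0.9945 (genes are no independent replicates), and sham 2 and TES 4 had the lowest mean correlation with the others (0.9907 and 0.9914). The tissue label was checked with markers of rod photoreceptors, of which 12 of 12 measured genes lay above the level of olfactory receptor genes. The 1100 olfactory receptor genes, which serve here as a guide to low signal, lay at 2.31 in the median and had their 95th percentile at 3.10.

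No integrin or laminin gene differed between TES and sham retinas past an adjusted p of 0.05 in limma, nor did any of the 16633 genes (0%). The smallest adjusted p among the members was 0.843. At an unadjusted p under 0.05 the members held 1 gene, Itga10, which was lower after TES, against 5.57% of all genes. The members held 0 such genes without sham 2, 2 (Itga10 and Lama4) without sham 1, and 1 that was not Itga10 without TES 1 (Itga2) and without TES 4 (Lamb2). Over all genes the share in these fits was between 5.21% (without sham 1) and 5.89% (without sham 2). By direction, with all arrays, 2.35% of all genes were higher and 3.22% lower at that p. Itga10 was also the only member at the thresholds of the series text, which add a change of 1.2 fold or more. Of all genes 3.59% reached them, 1.63% higher and 1.96% lower. A model without variance moderation also gave 0 members past the adjusted p. At an unadjusted p under 0.05 it gave 3 (Itga3, Itga7 and Lama2), beside 5.45% of all genes. After TES 14 members had the higher mean and 17 the lower, and with each array centred on its median the split was 18 higher and 13 lower. The median difference was -0.01 over the members, -0.00023 over the integrins and -0.05 over the laminins, beside -0.01 over all genes. The 95% intervals of all 31 members lay between 0.648 fold (Itga10) and 1.38 fold (Itga6) of the sham level, and 30 of them included 0 on the log2 scale.

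**Figure D1:**
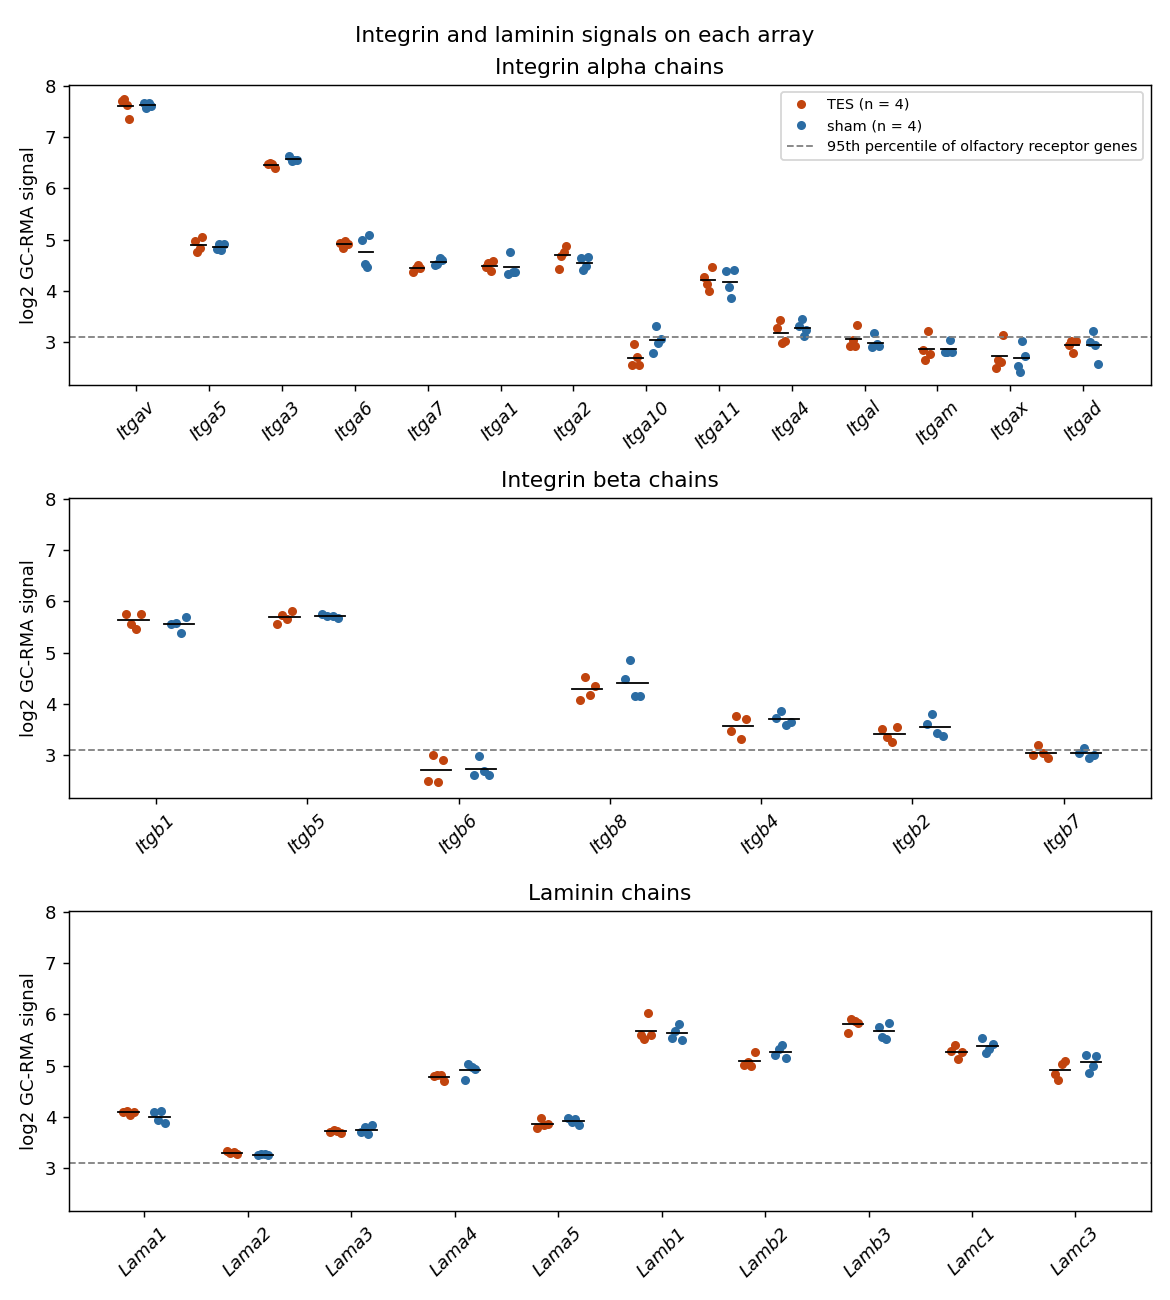
Log2 GC-RMA signal (y axis) of each integrin and laminin gene (x axis) on the 4 TES arrays (left points) and 4 sham arrays (right points). Black bars are group means and the dashed line is the 95th percentile of olfactory receptor genes (3.10). By their mean over 8 arrays the 10 laminins lie above that line and 7 of the 21 integrins below it, and Itga3 is the member whose groups do not overlap.

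**Figure D2:**
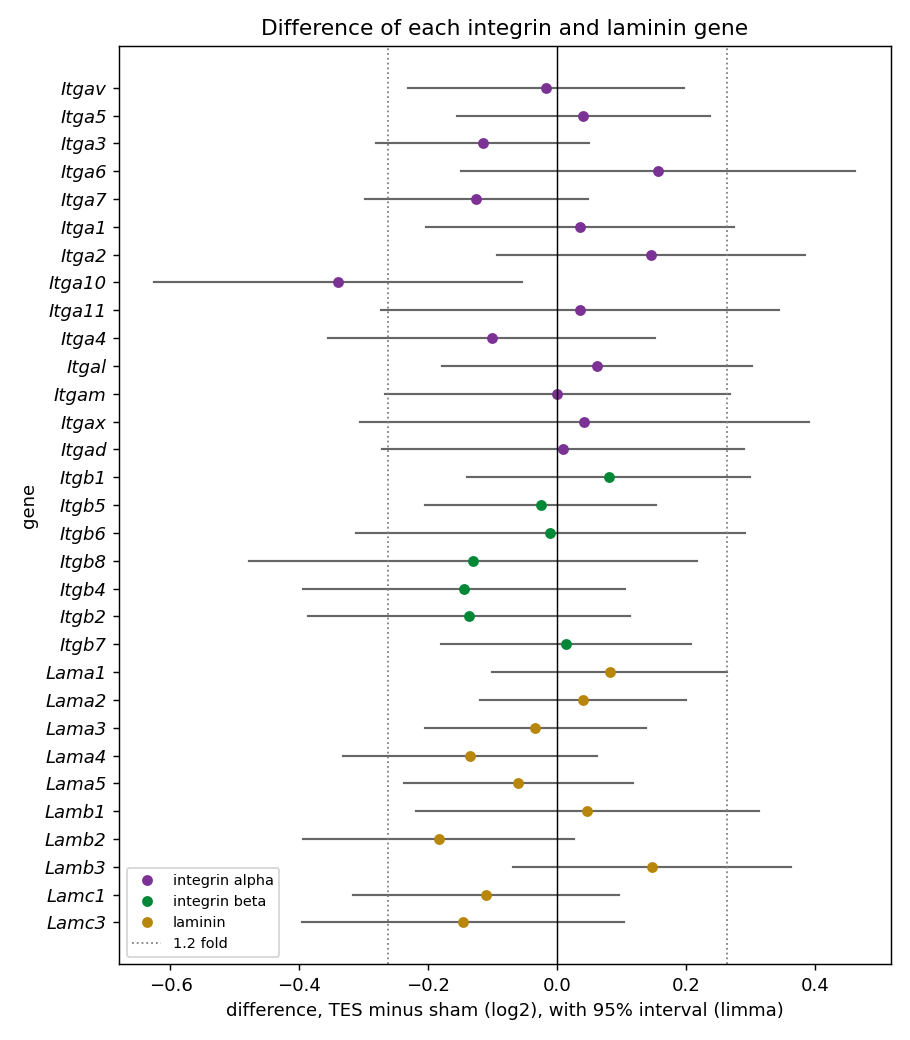
Difference of each member, TES minus sham on the log2 scale (x axis), with its 95% interval from limma (line). Genes run down the page by role and dotted lines mark 1.2 fold. Of the 31 intervals, the one of Itga10 (-0.63 to -0.05) leaves out 0.

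Of the members, 24 had a mean signal above the 95th percentile of olfactory receptors. The other 7 were Itga10, Itgal, Itgam, Itgax, Itgad, Itgb6 and Itgb7. All 10 laminins were above it. Members rest on many probe sets, with a median of 29 per gene (13 to 80) against 8 over all genes. Of the 1021 probe sets, 685 lay above the 95th percentile of olfactory receptor probe sets (3.21). This held for 30 of 30 probe sets of Itgav, 35 of 37 of Lamb1 and 26 of 27 of Itga3, but for 8 of 30 of Itga10 and 2 of 15 of Itgb6.

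The alpha chains that recognise the RGD motif of fibronectin and vitronectin gave differences close to 0 with the mean over probe sets, and further from 0 with other summaries. Itgav, which pairs with several beta chains, had signals of 7.69, 7.75, 7.62 and 7.35 on the TES arrays, against 7.65, 7.55, 7.67 and 7.61 on the sham arrays. The groups overlapped, TES 4 was the lowest array of all, and the difference was -0.02 (95% interval -0.23 to 0.20), or -0.28 with the median probe set (limma unadjusted p 0.0594). Itga5, the alpha chain of the main fibronectin receptor, had 4.97, 4.77, 4.84 and 5.06 on the TES arrays, against 4.82, 4.93, 4.80 and 4.92 on the sham arrays. Its groups overlapped as well, with a difference of 0.04 (95% interval -0.16 to 0.24). It was -0.28 with the median probe set (limma unadjusted p 0.0732) and -0.48 with the probe set of highest mean (0.0173, adjusted p 0.902), the opposite sign.

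Among the laminin-binding alpha chains, Itga3 and Itga7 had lower means after TES and Itga6 a higher one, all with limma adjusted p of 0.923 or more. Itga3, which binds epithelial and other laminins together with Itgb1, had 6.48, 6.49, 6.47 and 6.39 on the TES arrays, against 6.64, 6.54, 6.56 and 6.56 on the sham arrays. Every TES array lay below every sham array, the only member for which the groups did not overlap in either direction. That holds for 3.31% of all genes in either direction, for 1.98% with TES below sham and for 1.32% with TES above it. The difference was small, -0.12 (95% interval -0.28 to 0.05), with a limma unadjusted p of 0.152, and 0.0116 in a model without variance moderation (adjusted p 0.907). SDs over the 4 arrays were 0.05 after TES and 0.04 after sham. The probe sets of Itga3 were split, 10 of 27 being higher after TES and 1 of 27 having an unadjusted p under 0.05.

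Itga7, a laminin receptor chain known from muscle, had 4.37, 4.45, 4.51 and 4.45 on the TES arrays, against 4.51, 4.52, 4.65 and 4.61 on the sham arrays. The groups met between TES 3 and sham 1, and the difference was -0.13 (95% interval -0.30 to 0.05). Itga6, which pairs with Itgb1 or with the hemidesmosome chain Itgb4, had 4.94, 4.84, 4.98 and 4.92 on the TES arrays, against 4.99, 4.52, 4.46 and 5.10 on the sham arrays. The sham arrays fell into a high and a low pair on either side of the TES arrays. The difference of 0.16 (95% interval -0.15 to 0.46) therefore lay within the spread of the sham arrays (SD 0.32, n = 4). With the probe set of highest mean Itga6 was at 0.50 (limma unadjusted p 0.00862, adjusted p 0.888). With the median probe set it was at -0.068, the opposite sign.

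Of the 4 collagen-binding alpha chains, 3 had a slightly higher mean after TES, and Itga10, a collagen receptor chain known from cartilage, had a lower one. Itga10 had signals of 2.55, 2.98, 2.73 and 2.55 on the TES arrays, against 2.80, 3.33, 2.98 and 3.06 on the sham arrays. TES 1, TES 3 and TES 4 lay below all sham arrays, and TES 2 lay within the sham range. The group means were 2.70 ± 0.20 after TES and 3.04 ± 0.22 after sham (SD, n = 4 each), a difference of -0.34 (95% interval -0.63 to -0.05). Its limma unadjusted p was 0.0237 and its adjusted p 0.843. Its mean signal of 2.87 was under the olfactory receptors' 95th percentile, and with its probe set of highest mean in place of the mean of all 30 the difference was 0.37. Leaving out each array in turn kept the unadjusted p under 0.05 in 5 of 8 fits, and the difference was -0.24 without sham 2 and -0.29 without TES 1 and without TES 4, the 3 fits that did not.

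The other collagen-binding chains overlapped between the groups. Itga1 had 4.46, 4.55, 4.38 and 4.58 on the TES arrays, against 4.33, 4.77, 4.37 and 4.37 on the sham arrays. Sham 2 stood apart from the other sham arrays, and the difference was 0.03 (95% interval -0.20 to 0.27), or 0.14 without sham 2. Itga2 had 4.44, 4.69, 4.77 and 4.87 on the TES arrays, against 4.65, 4.41, 4.48 and 4.66 on the sham arrays. TES 1 was among the lowest arrays, the other TES arrays were the highest, and the difference was 0.14 (95% interval -0.09 to 0.38). Without TES 1 it was 0.23, with a limma unadjusted p of 0.0462 and an adjusted p of 0.866. Itga11 had 4.28, 4.13, 4.00 and 4.47 on the TES arrays, against 4.39, 4.07, 3.87 and 4.41 on the sham arrays. Each group spread over more than its difference of 0.04 (95% interval -0.27 to 0.34).

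Itgb1, the beta chain that the laminin-binding and collagen-binding alpha chains share, had 5.75, 5.57, 5.47 and 5.75 on the TES arrays, against 5.56, 5.57, 5.38 and 5.70 on the sham arrays. The ranges nearly coincided, with a difference of 0.08 (95% interval -0.14 to 0.30). Itgb4, the partner of Itga6 in hemidesmosomes, had 3.47, 3.77, 3.31 and 3.71 on the TES arrays, against 3.72, 3.86, 3.60 and 3.65 on the sham arrays. TES 1 and TES 3 lay below all sham arrays, TES 2 and TES 4 within their range, and the difference was -0.14 (95% interval -0.39 to 0.11).

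The measured partners of Itgav gave small differences too. Itgb5, which forms the vitronectin and Mfge8 receptor of the pigment epithelium with Itgav, had 5.57, 5.73, 5.66 and 5.81 on the TES arrays, against 5.76, 5.71, 5.71 and 5.69 on the sham arrays. The sham arrays lay within the TES range, with a difference of -0.03 (95% interval -0.20 to 0.15). Itgb8, whose pair with Itgav activates latent TGF-beta, had 4.08, 4.52, 4.18 and 4.36 on the TES arrays, against 4.49, 4.86, 4.16 and 4.16 on the sham arrays. Sham 2 was the highest array, and the difference was -0.13 (95% interval -0.48 to 0.22) with all arrays and 0.02 without it. Itgb6, an epithelial beta chain that also activates TGF-beta with Itgav, had 2.51, 3.01, 2.47 and 2.90 on the TES arrays, against 2.62, 2.99, 2.70 and 2.63 on the sham arrays. It lay at the level of olfactory receptors, with a difference of -0.01 (95% interval -0.31 to 0.29). With arrays centred on their median, Itgav, Itgb5 and Itgb6 had differences of 0.01, 0.0064 and 0.02, the opposite sign.

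Integrins of leukocytes and microglia had low signals, with 5 of 7 no higher than the olfactory receptors' 95th percentile. Itga4, a receptor chain for Vcam1 and fibronectin on leukocytes, had 3.27, 3.44, 3.00 and 3.03 on the TES arrays, against 3.32, 3.45, 3.13 and 3.24 on the sham arrays. The groups overlapped, with a difference of -0.10 (95% interval -0.36 to 0.15). Itgb2, the beta chain shared by Itgal, Itgam, Itgax and Itgad, ranged from 3.26 to 3.55 on the TES arrays and from 3.37 to 3.82 on the sham arrays, a difference of -0.14 (95% interval -0.39 to 0.11). Itgam, its partner in the complement receptor of microglia, ranged from 2.66 to 3.22 on the TES arrays and from 2.81 to 3.05 on the sham arrays, with a mean of 2.88 in both groups. Itgal, Itgax, Itgad and Itgb7, a beta chain of lymphocytes, differed by 0.06, 0.04, 0.0090 and 0.01, and their groups overlapped.

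Markers of microglia and leukocytes were read beside these genes. Their summed linear signal over 24 measured genes ranged from 360 to 410 on the TES arrays and from 387 to 449 on the sham arrays, and 7 of the 24 (among them Ptprc, Cd14, Cd3e and Mpo) were not above the olfactory receptor level. Of the 24, 9 had a higher and 15 a lower mean after TES, 2 of them (Selplg and Cd14, both lower) with an unadjusted p under 0.05. Over all genes 5.57% had such a p and 45.1% the higher mean after TES. The sum was highest on TES 3 and on sham 3 within their groups, as was Itgam. Itga4, Itgal, Itgad, Itgb2 and Itgb7 were highest on other arrays in both groups, and Itgax on sham 3 but not on TES 3. Itgb2, the partner of Itgam, was lowest of the TES arrays on TES 3 (3.26). The part of these cells in the values of the leukocyte integrins was not tested.

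The laminin alpha chains, which carry the main sites for cell receptors, differed by -0.14 to 0.08. Lama1, the alpha chain of early basement membranes and of the inner limiting membrane, had 4.11, 4.12, 4.04 and 4.09 on the TES arrays, against 4.09, 3.95, 4.11 and 3.89 on the sham arrays. The TES arrays were close together at the upper end of the sham range, with a difference of 0.08 (95% interval -0.10 to 0.26). Lama2, the chain of muscle and nerve laminin, had 3.35, 3.30, 3.31 and 3.27 on the TES arrays, against 3.26, 3.27, 3.28 and 3.26 on the sham arrays. TES 4 lay within the sham range and the other TES arrays above it, with a difference of 0.04 (95% interval -0.12 to 0.20). The arrays of a group were close together, with SDs of 0.03 after TES and 0.01 after sham, and 29 of its 64 probe sets lay above the olfactory receptor level.

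Lama3, the epithelial chain that joins Lamb3, had 3.72, 3.75, 3.73 and 3.69 on the TES arrays, against 3.72, 3.80, 3.66 and 3.84 on the sham arrays. The TES arrays lay inside the sham range, with a difference of -0.03 (95% interval -0.20 to 0.14). Lama4, the chain of vessel walls, had 4.81, 4.81, 4.81 and 4.70 on the TES arrays, against 4.72, 5.04, 4.97 and 4.94 on the sham arrays. The other sham arrays lay above all TES arrays but sham 1 lay among them, and the difference was -0.14 (95% interval -0.33 to 0.06), or -0.20 without sham 1. Lama5, a widespread chain of mature basement membranes, had 3.78, 3.98, 3.85 and 3.86 on the TES arrays, against 3.99, 3.90, 3.97 and 3.85 on the sham arrays. Its difference of -0.06 (95% interval -0.24 to 0.12) was smaller than the range within either group.

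Among the beta chains, Lamb2 had the lower mean and Lamb3 the higher mean after TES, and neither passed with all arrays. Lamb2, a beta chain of retinal matrix, synapses and vessels, had 5.01, 5.08, 4.99 and 5.27 on the TES arrays, against 5.20, 5.33, 5.40 and 5.15 on the sham arrays. The groups overlapped only through TES 4, and the means were 5.09 ± 0.13 after TES and 5.27 ± 0.12 after sham (SD, n = 4 each). The difference of -0.18 (95% interval -0.39 to 0.03) was the largest among the laminins, with a limma adjusted p of 0.894, and it was -0.25 without TES 4 (limma unadjusted p 0.0252, adjusted p 0.896). Lamb3 had 5.64, 5.91, 5.87 and 5.84 on the TES arrays, against 5.76, 5.57, 5.53 and 5.82 on the sham arrays. TES 1 lay within the sham range and the other TES arrays above it, with a difference of 0.15 (95% interval -0.07 to 0.36). Lamb1, the beta chain of the most common laminins, had 5.59, 5.51, 6.02 and 5.59 on the TES arrays, against 5.55, 5.67, 5.80 and 5.50 on the sham arrays. TES 3 stood above all other arrays, and the difference of 0.05 (95% interval -0.22 to 0.31) became -0.07 without it.

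The gamma chains had lower means after TES with overlapping groups. Lamc1, the gamma chain of most laminins, had 5.29, 5.41, 5.13 and 5.26 on the TES arrays, against 5.54, 5.26, 5.32 and 5.42 on the sham arrays. Lamc3, a gamma chain found in retinal matrix, had 4.83, 4.72, 5.03 and 5.09 on the TES arrays, against 5.21, 4.85, 5.0001 and 5.19 on the sham arrays. Their differences were -0.11 (95% interval -0.32 to 0.10) and -0.15 (95% interval -0.40 to 0.10). With the median probe set Lamc3 was at -0.41 (limma unadjusted p 0.0160, adjusted p 0.862). With the probe set of highest mean it was at 0.34, the opposite sign.

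Markers of tissues that can come with the retina overlapped between the groups in their summed signals, and none passed an adjusted p of 0.05 in limma. Pigment epithelium markers were lower after TES in 13 of 20 measured genes, 5 of them (Rpe65, Rdh5, Rgr, Krt8 and Ttr) with an unadjusted p under 0.05, beside 5.57% of all genes. Their summed linear signal ranged from 3781 to 4712 on the TES arrays and from 4317 to 5011 on the sham arrays, with Best1 and Tyr not above the olfactory receptor level. Otx2 (mean 11.03), Rlbp1 (9.29) and Trpm1 (8.82) had the highest means of the list and weigh most in this sum. Rlbp1 was also used as a marker of Mueller glia, so the sum is no measure of pigment epithelium alone. Lens markers were higher in 8 of 10, of which Mip and Crygc had an unadjusted p under 0.05, with summed signals from 208 to 1576 on the TES arrays and from 130 to 772 on the sham arrays. The lens sum was highest on TES 3, the array on which Lamb1 was highest. Among the sham arrays the lens sum was lowest on sham 3 (130), the one with the highest Lamb1 (5.80). Lim2, Bfsp1, Gja3 and Crygc were not above the olfactory receptor level. Endothelial markers were lower in 9 of 14, with overlapping sums of 380 to 458 on the TES arrays and 387 to 438 on the sham arrays. Of these 14, Ocln had an unadjusted p under 0.05. Its TES arrays all lay below its sham arrays, which holds for 1.98% of all genes. Erythrocyte markers were higher in 6 of 6, none at that p, with summed signals from 811 to 1258 on the TES arrays and from 469 to 1244 on the sham arrays, and 4 of the 6 were not above the olfactory receptor level. The part of these tissues in the values of integrins and laminins was not tested.

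Partners of integrins and laminins were described from 4 lists, and no gene of them passed an adjusted p of 0.05 in limma. The first list held 41 genes of the adhesion complex, which links integrins to actin, or named for integrins. Among the latter, Itgb3bp (-0.11) and Itgbl1 (0.12) are not such links. In this list 10 had a higher and 31 a lower mean after TES, with a median difference of -0.05. Over all genes the median difference was -0.01, and 45.1% had the higher mean after TES. Of the 41, 38 lay above the olfactory receptor level. Over all genes above it the median difference was -0.02, and 40.3% had the higher mean after TES. Summed over the 41, linear signals ran from 5082 to 5157 on the TES arrays and from 5221 to 5415 on the sham arrays. Every TES array lay below every sham array, without a share over other gene lists beside it. These sums were not centred on the array medians, which were 5.32 to 5.36 (TES) and 5.33 to 5.41 (sham). At an unadjusted p under 0.05 there were 0 higher and 2 lower, which is 2 of 41 beside the 5.57% of all genes. Bcar1, a docking protein that Src and focal adhesion kinase phosphorylate, was at 6.17 ± 0.11 on TES arrays and 6.43 ± 0.23 on sham arrays (SD, n = 4 each), which differ by -0.26. Pxn, which encodes paxillin, was at 7.31 ± 0.06 on TES arrays and 7.54 ± 0.18 on sham arrays (SD, n = 4 each), and all its TES arrays lay below all sham arrays.

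Of 22 basement membrane partners 7 had a higher and 15 a lower mean, with a median difference of -0.04 and 1 gene at an unadjusted p under 0.05. Over all genes 5.57% had such a p and 45.1% the higher mean after TES. Col4a3 and Col4a4, type IV collagen chains, differed by -0.25 and -0.19. Of 14 other laminin receptors and enzymes that glycosylate them, 4 had a higher and 10 a lower mean, with 1 at that p. Bcam, a receptor for laminins with the Lama5 chain, was at 5.61 ± 0.09 on TES arrays and 5.83 ± 0.15 on sham arrays (SD, n = 4 each), and Sspn, which encodes sarcospan, differed by -0.30. Of 27 genes listed as other integrin ligands 11 had a higher and 16 a lower mean. Among the lower is Sgpp1 (-0.10), which was matched through a synonym and encodes a lipid phosphatase, not an integrin ligand. At an unadjusted p under 0.05 there was 1. This was Mfge8, which bridges outer segments to the integrin of Itgav and Itgb5. It was at 8.46 ± 0.13 on TES arrays and 8.27 ± 0.05 on sham arrays (SD, n = 4 each), a difference of 0.20. All its TES arrays lay above all sham arrays, which holds for 1.32% of all genes. Cyr61, a matrix ligand of several integrins, differed by -0.28.

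Below the level of genes, the probe sets of integrins and laminins varied far more than their means. At an unadjusted p under 0.05 in limma there were 99 of 1021 (9.70%), 46 higher and 53 lower after TES, against 5.04% of all 172924 probe sets (2.19% higher and 2.85% lower). Integrins held 58 of 550 and laminins 41 of 471, and the smallest adjusted p of any was 0.747. The arrays of a group also differed more at these probe sets, with a median within-group SD of 0.75 against 0.38 over all probe sets. In a model without variance moderation the count was 65 of 1021 (6.37%) against 4.7% of all, and the groups did not overlap at 36 (3.53%) against 2.73% of all. By quartile of that SD over all probe sets, from low to high, the members held 40, 84, 229 and 668 probe sets. Their shares at an unadjusted p under 0.05 in limma were 12.5%, 20.2%, 12.2% and 7.34%. Those of all probe sets were 3.17%, 6.09%, 6.73% and 4.19%. The part of the wider spread in the members' share was not tested, and probe sets of 1 gene are not independent of each other.

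**Figure D3:**
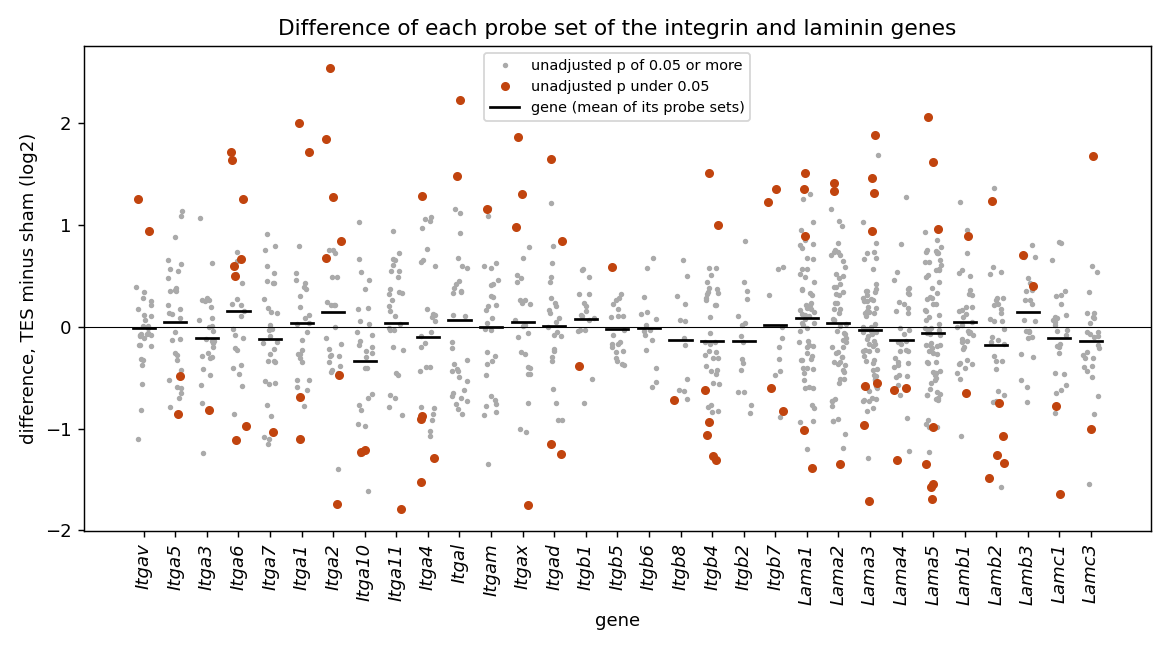
Difference of each of the 1021 member probe sets, TES minus sham on the log2 scale (y axis), by gene (x axis, with random sideways shifts). Red points have an unadjusted p under 0.05 in limma (99 probe sets, 46 higher and 53 lower) and black bars are the genes' differences, which lie between -0.34 and 0.16.

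The shares differed between genes. Itga6 had 8 of 27 probe sets at an unadjusted p under 0.05, 6 higher and 2 lower, and Itga2 had 7 of 29, 5 higher and 2 lower. Itgb4 had 2 higher and 5 lower of 40, and Lamb2 had 1 higher and 5 lower of 34. Lama5 had 3 higher and 5 lower of 80, and Lama3 had 4 of each of 75. Itgb2 and Itgb6 had none of 16 and 15.

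The 5 probe sets of smallest p came from Lama5, Itga1, Itga11, Lama5 and Itga6, and in each of them the groups did not overlap. The first of Lama5 had signals of 3.31, 3.02, 2.95 and 3.68 on the TES arrays, against 5.37, 4.83, 4.49 and 5.06 on the sham arrays, a difference of -1.70. The other of Lama5 had 5.19, 5.82, 5.14 and 5.05 on the TES arrays, against 2.51, 4.28, 3.11 and 3.08 on the sham arrays, a difference of 2.06 in the opposite direction within the same gene. The probe set of Itga1 had 4.68, 3.91, 4.18 and 4.87 on the TES arrays, against 2.48, 2.82, 2.47 and 3.00 on the sham arrays, a difference of 1.71. These differences stand beside gene differences of -0.06 for Lama5 and 0.03 for Itga1.

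The probe set of Itga11 had 2.39, 2.24, 3.11 and 2.51 on the TES arrays, against 4.90, 4.24, 3.78 and 4.48 on the sham arrays, a difference of -1.79. That of Itga6 had 4.63, 5.15, 4.79 and 4.55 on the TES arrays, against 3.35, 3.11, 3.90 and 3.76 on the sham arrays, a difference of 1.25. All 5 had a limma adjusted p of 0.747 over 172924 probe sets. Their mean over all arrays was above the 95th percentile of olfactory receptor probe sets (3.21), which the higher group alone can bring about. The mean of the lower group was under that level for Itga11 (2.56, TES) and Itga1 (2.69, sham). It was close to it for the Lama5 probe sets (3.24, TES, and 3.25, sham) and 3.53 (sham) for Itga6. The exon that each probe set covers is not given in the annotation used here.

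**Figure D4:**
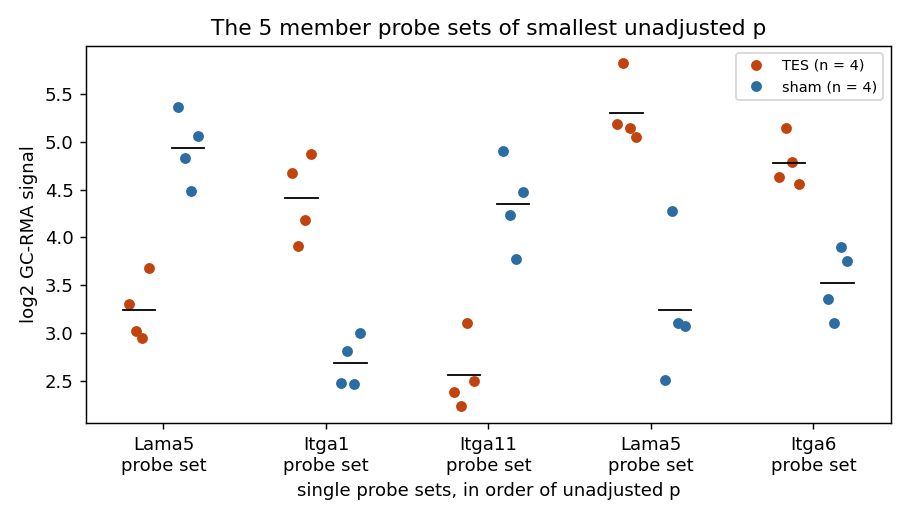
Log2 GC-RMA signal (y axis) of the 5 member probe sets of smallest unadjusted p (x axis) on the 4 TES arrays (left points) and 4 sham arrays (right points), with group means as black bars. The groups do not overlap in any of the 5, and the probe sets of Lama5 differ in opposite directions (-1.70 and 2.06).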

How the data were processed

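Signals are log2 values that the authors made from Affymetrix scans with GC-RMA in GeneSpring GX, per the series text deposited with them. The submitters' processing notes list GCRMA without its version. That the logarithm is base 2 was read from the values (0.549 to 13.2). Any scaling between arrays is not stated in these sources. Scanner files were not analysed here. The number of arrays limits the precision. Probe sets were named from the platform annotation, and those with 1 symbol were averaged per gene and array. TES was compared with sham in limma 3.58.1 (R 4.3.3, lmFit and eBayes, no covariate, no filter), with Benjamini-Hochberg adjustment over all 16633 genes or 172924 probe sets, and tested on simulated data. Values on every array are given for members with an unadjusted p under 0.05 or groups that did not overlap, those of highest signal and their chain partners. From the partner lists the text names genes past the series' thresholds, otherwise the 2 of smallest p, and, chosen after their values were seen, Pxn and Flna. Markers named as not above the olfactory receptor level, at a small p or of highest mean were also chosen so. Sgpp1, Itgb3bp and Itgbl1 are named for what they encode. Members and lists were chosen with earlier results of these data known.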

Additional observations from a re-analysis of the deposited data

Results flagged for a closer look

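In 62 groups of 4 arrays (31 members, TES and sham), 4 held an array far from the other 3, where chance marks about 1 group in 20. Lama4 was at 4.70 on TES 4, with the nearest TES array at 4.81. Lamb1 was at 6.02 on TES 3, with the nearest TES array at 5.59. Itga1 was at 4.77 on sham 2, with the nearest sham array at 4.37. Itgam was at 3.05 on sham 3, with the nearest sham array at 2.82.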

How the results depend on the processing

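No member passed an adjusted p of 0.05 under any alternative, the lowest being 0.735 (Itga10 without TES 2). Of 25 members with values on every array, 4 (Itga3, Itgb1, Lama2 and Lamc1) kept the sign of their difference under all 15 alternatives that gave one, and 37 of 375 differences turned. Of those that turned, only Itga5 with the probe set of highest mean had an unadjusted p under 0.05 (0.0173, adjusted p 0.902 in limma). The cause of each change below was not tested unless stated.

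With the median probe set per gene, Itga5 was at -0.28, Itga6 at -0.068, Itga11 at -0.013, Lama4 at 0.047 and Lamb1 at -0.094. The laminin median was then -0.078, and 2 members (Itga10 and Lamc3) passed the unadjusted p and the study's thresholds. With the probe set of highest mean, Itga5 was at -0.48, Itga7 at 0.14, Itga2 at -0.11, Itga10 at 0.37, Itga4 at 0.17, Itgb4 at 0.34, Lama1 at -0.32, Lama3 at 0.15, Lama5 at 0.16, Lamb2 at 0.052, Lamb3 at -0.039 and Lamc3 at 0.34. The laminin median was then 0.10, and 5 of 31 members passed both (Itga5, Itga3, Itga6, Itgax and Itgad). At the unadjusted p alone, 5.16% of all genes passed with that probe set and 5.37% with the median probe set. With only probe sets above the olfactory receptor level, Itga5 was at -0.0026 and 0 members passed either. Centring arrays on their median gave 0.014 for Itgav, 0.0064 for Itgb5, 0.021 for Itgb6 and -0.015 for the laminin median.

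Leaving out each array in turn gave 0 (without sham 2) to 2 (without sham 1, Itga10 and Lama4) members at the unadjusted p, 0 (without TES 1, TES 4 or sham 2) to 1 at the study's thresholds and 86 to 116 member probe sets. These were 8.42% to 11.4% of the member probe sets, beside 4.81% to 5.58% of all probe sets. Differences that turned ranged from -0.066 to 0.065 (Itgav), -0.0091 to 0.087 (Itga5), -0.0082 to 0.14 (Itga1), -0.071 to 0.11 (Itga11), -0.065 to 0.016 (Itgb5), -0.10 to 0.074 (Itgb6), -0.22 to 0.017 (Itgb8) and -0.067 to 0.10 (Lamb1). Without both sham 2 and TES 4, an alternative chosen after seeing the data, Itgav was at 0.043, Itga11 at -0.085, Itga4 at 0.0054 and Itgb6 at 0.013, and 2 members (Lamb2 and Lamc3) passed the unadjusted p. Of all genes 5.72% did so in that fit. Leaving out the lowest quartile of signal, or all genes below the median signal, gave 0 members at the unadjusted p and 0 at the study's thresholds, since Itga10 was not among the genes tested. Without variance moderation 3 members passed the unadjusted p, 0 the study's thresholds and, added after seeing the data, 65 member probe sets the unadjusted p. A fold minimum of 1.5 left 0 members.

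With the replicate number as a block, 1 member (Itga10) passed the unadjusted p, beside 6.31% of all genes. So did 114 member probe sets (11.2%), beside 5.43% of all probe sets. Same-numbered arrays did not deviate together throughout (r of 0.12, 0.13, 0.0056 and -0.12). These values cannot tell whether the numbers pair the samples.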
